A study of Homo sapiens with 16 samples.

Results

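The mitochondrially encoded transcripts were taken as every gene of the count table that lies on the mitochondrial chromosome, MT. These were 37 of 58735 genes: 2 ribosomal RNAs (rRNAs), 13 messenger RNAs (mRNAs) and 22 transfer RNAs (tRNAs). All 37 lay at the same start, end and strand in GENCODE release 29 on GRCh38. RNA was sequenced from the established human breast cancer lines MDA-MB-231 and SUM159 (titled SUM159PT), which are triple-negative and, per the labels, wild type. The groups were MDA-MB-231 with 8 uM YES1i (CH6953755, which blocks YES1, a kinase of the Src family), MDA-MB-231 with the solvent DMSO, SUM159 with 8 uM YES1i and SUM159 with DMSO, all collected 48 h after addition. Each group held 4 libraries, which the series text calls technical replicates, so every p-value below measures the spread between these libraries and not between independent cultures. MDA-MB-231 was grown in RPMI and SUM159 in Ham's F12, so line and medium cannot be told apart.

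Human mitochondrial DNA is a small circle whose strands are called heavy and light. Each strand is copied from end to end into a long transcript, and enzymes free the single RNAs from it, in most places by cutting out the tRNAs that lie between the other genes. MT-RNR1 is the 12S rRNA of the small and MT-RNR2 the 16S rRNA of the large mitochondrial ribosome subunit, and the 13 mRNAs encode membrane subunits of respiratory complexes I, III, IV and V. The heavy-strand transcript carries both rRNAs, 12 mRNAs and 14 tRNAs. The light-strand transcript carries MT-ND6 and 8 tRNAs. Mature mitochondrial mRNAs mostly end in a short poly(A) tail, MT-ND6 is known for having little or none, the rRNAs carry a few added A, and mature tRNAs end in CCA. The libraries were made from RNA bound to poly-T beads, per the labels. A difference in the amount of one of these RNAs and a difference in how well it was bound therefore cannot be told apart. Nor do the sources used here give the strand setting of the counting, so that light-strand genes and the heavy-strand transcript opposite them cannot be told apart either.

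3 tRNA genes had the highest mean levels of their class, all encoded on the light strand, and their sequences are shown because the tRNA results turn on them. MT-TC, the cysteine tRNA, lies at MT:5761-5826, and MT-TN, the asparagine tRNA, at MT:5657-5729, both between MT-ND2 and MT-CO1 and on either side of the origin from which the light strand is replicated. MT-TP, the proline tRNA, lies at MT:15956-16023, next to the control region. Sequences are from GENCODE release 29 (GRCh38), 5′ to 3′ on the gene's own strand, with the anticodon in capitals, at positions 29 to 31 of MT-TC, 34 to 36 of MT-TN and 32 to 34 of MT-TP.
MT-TC: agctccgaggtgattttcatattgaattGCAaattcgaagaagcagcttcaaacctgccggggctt
MT-TN: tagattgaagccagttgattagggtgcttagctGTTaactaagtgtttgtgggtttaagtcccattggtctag
MT-TP: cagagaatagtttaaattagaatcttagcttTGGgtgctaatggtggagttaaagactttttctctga

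Poly-T beads bind runs of A, so the longest A run inside each rRNA is shown, in capitals, with 12 bases on each side. MT-RNR1 (954 bases, MT:648-1601) held a single run of 6 A, at MT:981-1010 with its flanks. MT-RNR2 (1559 bases, MT:1671-3229) held 4 runs of 6 or more A, the longest of 7 at MT:2445-2475 with its flanks. Among the mRNAs the longest run ranged from 3 A in MT-ND6 and MT-ND4L to 8 A in MT-ND5. Whether these runs were bound was not tested.
MT-RNR1: cacctgagttgtAAAAAActccagttgaca
MT-RNR2: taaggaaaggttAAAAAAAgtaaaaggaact

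MT-ATP8 and MT-ATP6, which encode subunits of the ATP synthase (complex V), are read from one mRNA and share 46 bases at MT:8527-8572. The shared stretch is shown because counts of the shorter gene can depend on it. Its capitals mark the start codon of MT-ATP6 and the stop codon of MT-ATP8. The counting rule for reads over such overlaps is not given in the sources used here, so the values of MT-ATP8, and of MT-ND4L, which shares 7 bases with MT-ND4, are uncertain.
Shared bases: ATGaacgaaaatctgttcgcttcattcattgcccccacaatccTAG

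Libraries held 15876171 to 36261542 counts, and 17647 genes were tested. A count of 0 allows up to 0.0827 to 0.189 CPM (the usual count per library size, scaled by edgeR's TMM factors), depending on the library and for counting error only. In SUM159, DMSO replicate 1 and YES1i replicate 2 had the largest differences within their groups. They are called below the libraries that stood apart. The chi-square over degrees of freedom against another library of the group reached 17.7 and 24.4 for them. Among MDA-MB-231 libraries it was at most 7.93. For SUM159 DMSO replicate 1 it was 7.56 against replicate 4, close to the 7.55 between replicates 3 and 4. DMSO replicate 1 also held the most counts, 36261542, and the part of depth in these values was not tested. DMSO replicate 1 was highest of its group for 12 of 13 mitochondrial mRNAs and YES1i replicate 2 for 11 of 13. Markers of the lines were present (VIM, CD44, EGFR, KRT8, KRT18 and AXL, all at 84.9 CPM or more), ESR1 stayed at or under 0.733 CPM and PGR at or under 0.114 CPM. Of the 13 genes that mark leukocytes, endothelium or fibroblasts, CDH5 was at or under 0.0911 CPM and CD14 at or under 2.54 CPM, while COL1A1 reached 828 CPM in SUM159. The 4 endothelium markers summed to at least 14.8 CPM in every library with YES1i and at most 9 CPM with DMSO in MDA-MB-231, and to 18.3 to 20.04 CPM with YES1i and 9.99 to 11.9 CPM with DMSO in SUM159. The 5 leukocyte markers summed to 1.58 to 2.92 CPM with YES1i and 2.23 to 2.73 CPM with DMSO in MDA-MB-231, and to 2.29 to 2.85 CPM with YES1i and 0.645 to 1.33 CPM with DMSO in SUM159, without overlap there, and the 1 tested of them was called higher in SUM159 (log2 fold change 1.69). The 4 fibroblast markers summed to 22.7 to 29.1 CPM with YES1i and 35.9 to 38.5 CPM with DMSO in MDA-MB-231, with DCN at 0 there, and to 729 to 896 CPM with YES1i and 716 to 851 CPM with DMSO in SUM159. The part of these markers in the results was not tested.

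With YES1i there were more rRNA counts per mitochondrial mRNA count in both lines. In MDA-MB-231 the libraries held 36.4, 41.4, 35.7 and 38.8 rRNA counts per 100 mitochondrial mRNA counts with YES1i, against 18.7, 21.5, 18.01 and 22.0 with DMSO. In SUM159 they held 49.8, 42.2, 43.0 and 52.7 with YES1i, against 19.0, 26.9, 22.8 and 25.8 with DMSO. The groups did not overlap in either line, and since both counts come from the same library the ratio does not depend on scaling between libraries. All mitochondrial members together made up 4.86% ± 0.0565 of counts with YES1i and 3.904% ± 0.373 with DMSO in MDA-MB-231, and 4.28% ± 0.597 with YES1i and 3.92% ± 0.730 with DMSO in SUM159 (SD, n = 4 each). In bulk RNA, a different share of cells rich in these RNAs and a different amount per cell cannot be told apart.

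Genes with an adjusted p under 0.05 were called, from edgeR's quasi-likelihood test with Benjamini-Hochberg adjustment over all tested genes. Of the 37 members 30 passed the filter on low counts and were tested, and the other 7, all tRNAs, had at most 15 counts in any library. In MDA-MB-231, 5 members were higher with YES1i and 1 was lower of 30 tested, where 48.9% of all tested genes were called. In SUM159, 11 were higher and 5 lower of 30 tested, where 51.6% of all tested genes were called. By direction, 26.8% of all genes were called higher and 22% lower in MDA-MB-231, while SUM159 had 25.1% higher and 26.5% lower. With upper quartile scaling 63.4% of the genes called in SUM159 were higher, against 48.7% with TMM. MT-RNR2, MT-TC and MT-TP, 3 of 30 tested members, were called higher in both lines, where 12.4% of all tested genes were. MT-ND3, 1 of 30, was called lower in both, where 14% of all tested genes were. In this fit of all libraries 0 members were called in opposite directions, which 5.17% of all tested genes were. In fits of each line alone, and without both SUM159 libraries that stood apart, MT-TL1 and MT-TH were called lower in MDA-MB-231 and higher in SUM159. The median log2 fold change was 0.02 over the 30 tested members and 0.03 over all tested genes in MDA-MB-231, and 0.30 over those members and 0.02 over all genes in SUM159.

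**Figure D1:**
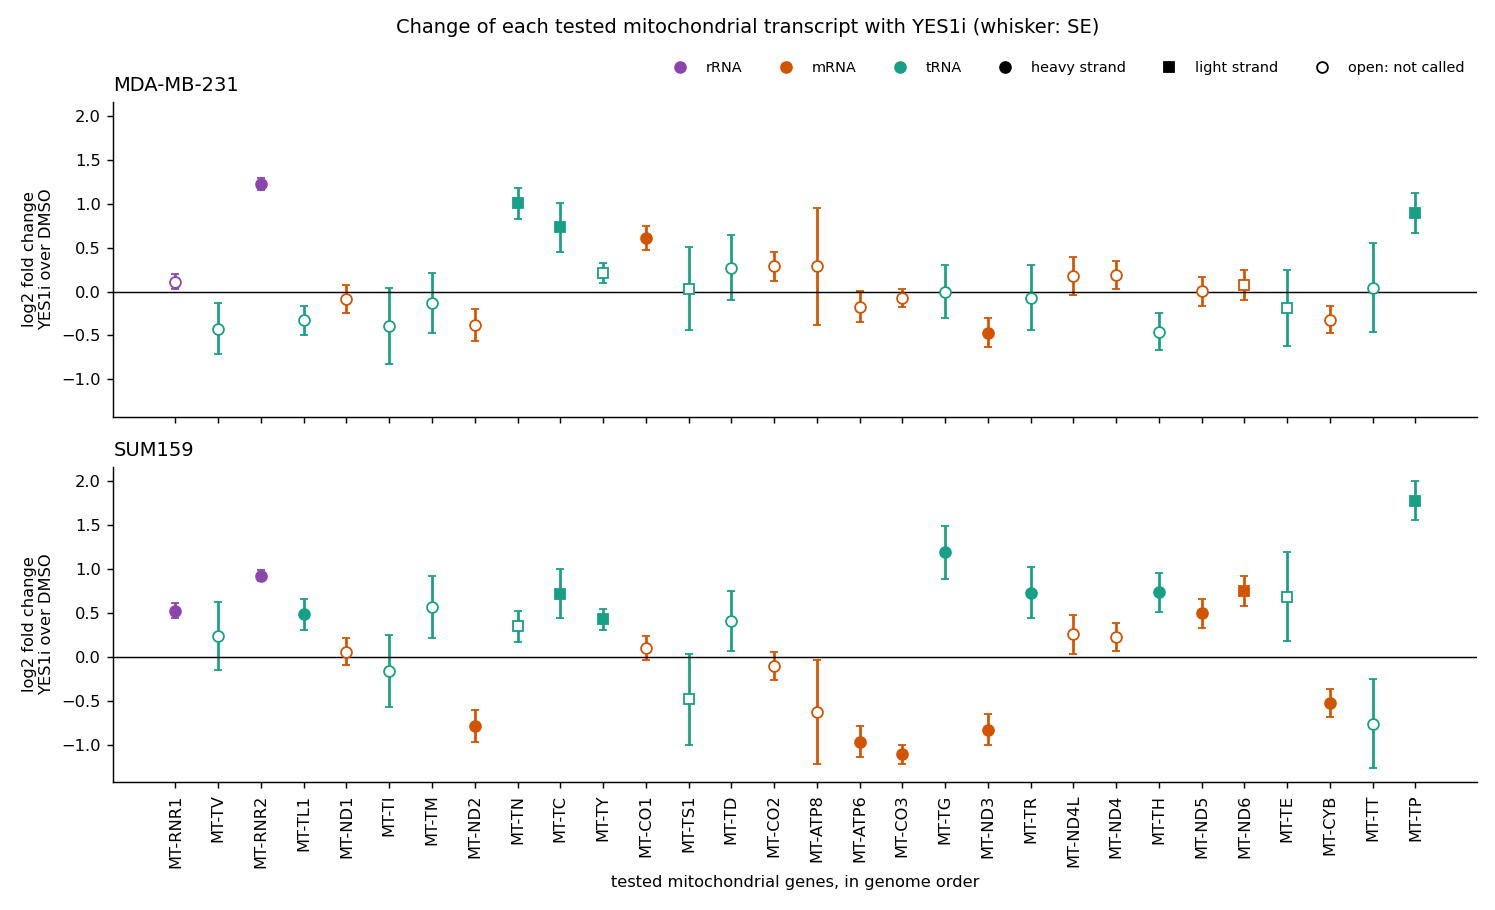
Log2 fold change of YES1i over DMSO for each of the 30 tested mitochondrial genes, in genome order along the x axis, in MDA-MB-231 (above) and SUM159 (below); whiskers are standard errors, filled symbols were called, squares are light-strand genes. MT-RNR2 stands high in both lines, while MT-ND2, MT-ATP6, MT-CO3, MT-ND3 and MT-CYB lie below 0 in both and were all called lower in SUM159.

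MT-RNR2, the 16S rRNA, had the largest rise with YES1i among the members called in MDA-MB-231. Its levels there were 11183, 12391, 11836 and 12565 CPM with YES1i, against 5440.3, 5275, 4853 and 4989 CPM with DMSO. In SUM159 they were 12124, 13536, 12456 and 11978 CPM with YES1i, against 7104, 6143, 5903 and 7268 CPM with DMSO. Every YES1i library lay above every DMSO library in both lines, where 25.5% of all tested genes in MDA-MB-231 and 20.5% in SUM159 did so. The log2 fold change was 1.22 ± 0.06 (SE) in MDA-MB-231 (edgeR's adjusted p = 9.91e-16) and 0.92 ± 0.06 in SUM159 (edgeR's adjusted p = 5.75e-13).

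MT-RNR1, the 12S rRNA, lies before MT-RNR2 in the heavy-strand transcript, with the valine tRNA MT-TV between them. In MDA-MB-231 it had 1217, 1193, 1093 and 991 CPM with YES1i, against 1059, 1023, 1091 and 981 CPM with DMSO. These groups overlapped and the gene was not called, at a log2 fold change of 0.11 ± 0.08 (SE, edgeR's adjusted p = 0.270). In SUM159 it rose to 1248, 1487, 1204 and 1194 CPM with YES1i, against 975, 781, 829 and 979.6 CPM with DMSO, with no overlap and a log2 fold change of 0.53 ± 0.08 (edgeR's adjusted p = 1.55e-05).

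The rRNAs therefore shifted against each other within libraries. MDA-MB-231 libraries held 9.19, 10.4, 10.8 and 12.7 MT-RNR2 counts per MT-RNR1 count with YES1i, against 5.14, 5.16, 4.45 and 5.09 with DMSO. SUM159 libraries held 9.71, 9.10, 10.3 and 10.0 with YES1i, against 7.29, 7.87, 7.12 and 7.42 with DMSO. The ratio was higher in every YES1i library of both lines, and the DMSO libraries of MDA-MB-231 had the lowest values of the 4 groups.

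**Figure D2:**
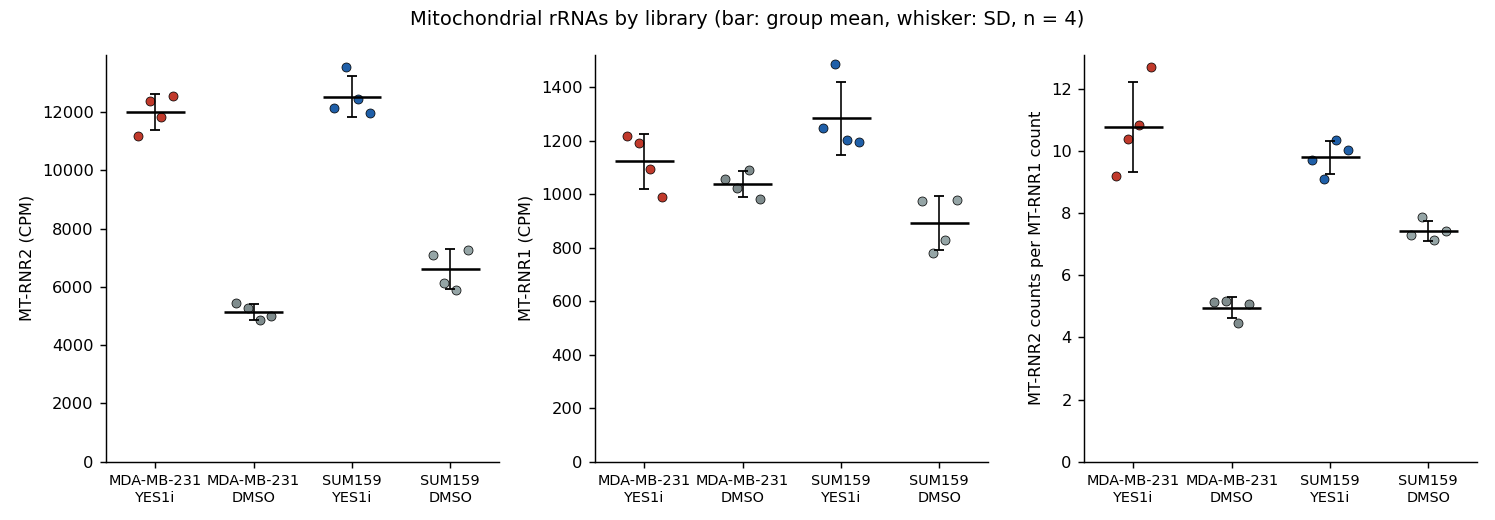
MT-RNR2 (left) and MT-RNR1 (middle) in CPM, and MT-RNR2 counts per MT-RNR1 count (right), by library; points are libraries, bars group means and whiskers SD (n = 4). MT-RNR2 lies at 11183 CPM or more in every YES1i library and at 7268 CPM or less in every DMSO library, while MT-RNR1 overlaps between the MDA-MB-231 groups.

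Complex I (NADH dehydrogenase) takes 7 subunits from mitochondrial mRNAs, and these did not move together. In MDA-MB-231, 1 of 7 was lower with YES1i and none higher (by edgeR 0 also at an unadjusted p under 0.05, and 0 by DESeq2 and limma-voom), and the median log2 fold change was 0.00. In SUM159, 2 were higher and 2 lower, with a median of 0.22. The shares over all tested genes were 26.8% higher and 22% lower in MDA-MB-231, and 25.1% higher and 26.5% lower in SUM159. MT-ND3 was the member lower in both lines, and MT-ND1, MT-ND4L and MT-ND4 were called in neither, at log2 fold changes of -0.09 to 0.19 in MDA-MB-231 and 0.06 to 0.26 in SUM159.

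MT-ND3, the smallest but one of these mRNAs, had 575, 682, 609.5 and 605 CPM with YES1i in MDA-MB-231, against 963, 842, 857 and 752 CPM with DMSO. In SUM159 it had 309, 146, 241 and 251 CPM with YES1i, against 369, 442, 436 and 432 CPM with DMSO. Neither pair of groups overlapped; 21.8% of all tested genes in MDA-MB-231 and 22.7% in SUM159 were lower in this way. The log2 fold change was -0.47 ± 0.17 (SE) in MDA-MB-231 (edgeR's adjusted p = 0.0373) and -0.83 ± 0.17 in SUM159 (edgeR's adjusted p = 0.00130). The call in MDA-MB-231 ended without DMSO replicate 1, 2 or 3 or YES1i replicate 1, 3 or 4 (adjusted p 0.0620 to 0.0962). It also ended there with no filter (0.05955) and with a replicate block (0.0932). In SUM159 the gene stayed called whichever 1 library was left out.

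MT-ND2 had 684, 987, 901 and 641 CPM with YES1i in SUM159, against 1918, 1049, 1207 and 1354 CPM with DMSO. These did not overlap, and the log2 fold change was -0.78 ± 0.18 (SE, edgeR's adjusted p = 0.00295). In MDA-MB-231 its levels were 1452, 1421, 1544 and 1577 CPM with YES1i, against 2206, 1874, 2069.7 and 1668 CPM with DMSO. These did not overlap either, but the gene was not called, at a log2 fold change of -0.38 ± 0.18 (edgeR's adjusted p = 0.103). It was called without SUM159 DMSO replicate 1 (0.0369), a library that enters only through the shared spread, and with limma-voom (0.0266).

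MT-ND5 and MT-ND6 lie next to each other on opposite strands. In SUM159, MT-ND5 had 2269, 3099, 2656 and 2035 CPM with YES1i, against 2368, 1359, 1668 and 1734 CPM with DMSO. MT-ND6 had 666, 880.3, 741 and 552 CPM with YES1i, against 572, 317, 396 and 398 CPM with DMSO. Both were called higher although their groups overlapped through DMSO replicate 1, at log2 fold changes of 0.50 ± 0.16 for MT-ND5 (SE, edgeR's adjusted p = 0.0227) and 0.75 ± 0.17 for MT-ND6 (edgeR's adjusted p = 0.00249). The MT-ND5 call ended without SUM159 DMSO replicate 2, 3 or 4 or YES1i replicate 2 or 3 (adjusted p 0.0522 to 0.0784), in a fit of SUM159 alone (0.0705) and without the filter (0.0624). Without DMSO replicate 1, MT-ND4 was also called higher in SUM159 (0.39, adjusted p = 0.0194). In MDA-MB-231 their log2 fold changes were 0.00 ± 0.16 and 0.07 ± 0.17, and neither was called.

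Within libraries, SUM159 had 28.2 ± 0.937 MT-ND6 counts per 100 MT-ND5 counts with YES1i and 23.5 ± 0.512 with DMSO (SD, n = 4 each), without overlap. MDA-MB-231 had 30.5 ± 1.23 with YES1i and 29.2 ± 0.635 with DMSO, and these overlapped.

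MT-CYB, cytochrome b and the only mitochondrially encoded subunit of complex III, had 971, 1314, 1235 and 924 CPM with YES1i in SUM159, against 2113, 1224, 1455 and 1593 CPM with DMSO. The groups overlapped, and the log2 fold change was -0.52 ± 0.15 (SE, edgeR's adjusted p = 0.0124). In a fit of the SUM159 libraries alone the call ended (adjusted p = 0.0543). In MDA-MB-231 it had 1474, 1398, 1531 and 1405 CPM with YES1i, against 2025, 1768, 1861 and 1604 CPM with DMSO, without overlap, and was not called (log2 fold change -0.32 ± 0.15, edgeR's adjusted p = 0.106), though it was without SUM159 DMSO replicate 1 (0.0328) and with limma-voom (0.0325).

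Of the complex IV (cytochrome c oxidase) mRNAs, MT-CO1 was called in MDA-MB-231, MT-CO3 in SUM159 and MT-CO2 in neither. MT-CO1, the catalytic subunit, rose in MDA-MB-231 to 9486, 9038, 9899.7 and 9861 CPM with YES1i, against 7094, 5639, 6929 and 5438 CPM with DMSO. These groups did not overlap, at a log2 fold change of 0.61 ± 0.14 (SE, edgeR's adjusted p = 0.00216). In SUM159 it had 8505, 10799, 9723 and 7904 CPM with YES1i, against 11093, 7100.0, 7994 and 8229 CPM with DMSO. Those groups overlapped and the gene was not called (0.10 ± 0.14, edgeR's adjusted p = 0.570).

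MT-CO3 had the largest fall of any mitochondrial mRNA called in SUM159. Its levels there were 1777, 2088, 2225 and 1786 CPM with YES1i, against 5149, 3503, 3841 and 4491 CPM with DMSO. The groups were far apart, and the log2 fold change was -1.11 ± 0.11 (SE, edgeR's adjusted p = 2.32e-07). In MDA-MB-231 it had 2968, 3058, 3257 and 3205 CPM with YES1i, against 3628, 3181, 3366 and 2959 CPM with DMSO, which overlapped, and it was not called (-0.07 ± 0.11, edgeR's adjusted p = 0.613). MT-CO2 was called in neither line, at log2 fold changes of 0.29 ± 0.16 in MDA-MB-231 and -0.10 ± 0.16 in SUM159. Its MDA-MB-231 groups did not overlap, at 5020 to 5869 CPM with YES1i and 3925 to 4969 CPM with DMSO. It was called higher in MDA-MB-231 when that line was fitted by itself (adjusted p = 0.00443) and without both SUM159 libraries that stood apart (0.0250).

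In complex V, MT-ATP6 had 1084, 1663, 1355 and 998 CPM with YES1i in SUM159, against 3372, 1909, 2304 and 2371 CPM with DMSO. It fell there without overlap, at a log2 fold change of -0.97 ± 0.18 (SE, edgeR's adjusted p = 0.000492). In MDA-MB-231 it had 2257, 2055, 2285 and 2249 CPM with YES1i, against 2716, 2402, 2627 and 2235 CPM with DMSO, and it was not called (-0.17 ± 0.18, edgeR's adjusted p = 0.454). MT-ATP8 was uneven between libraries of a group: in SUM159 it had 30.6, 96.4, 61.1 and 32.2 CPM with YES1i, against 187, 21.9, 22.3 and 105 CPM with DMSO. In the fit of all libraries, whose spread both lines share, it was called in neither line, with a standard error of 0.66 in MDA-MB-231 and 0.60 in SUM159 on the log2 scale. With the MDA-MB-231 libraries fitted by themselves it was called higher (0.24, adjusted p = 0.0199).

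**Figure D3:**
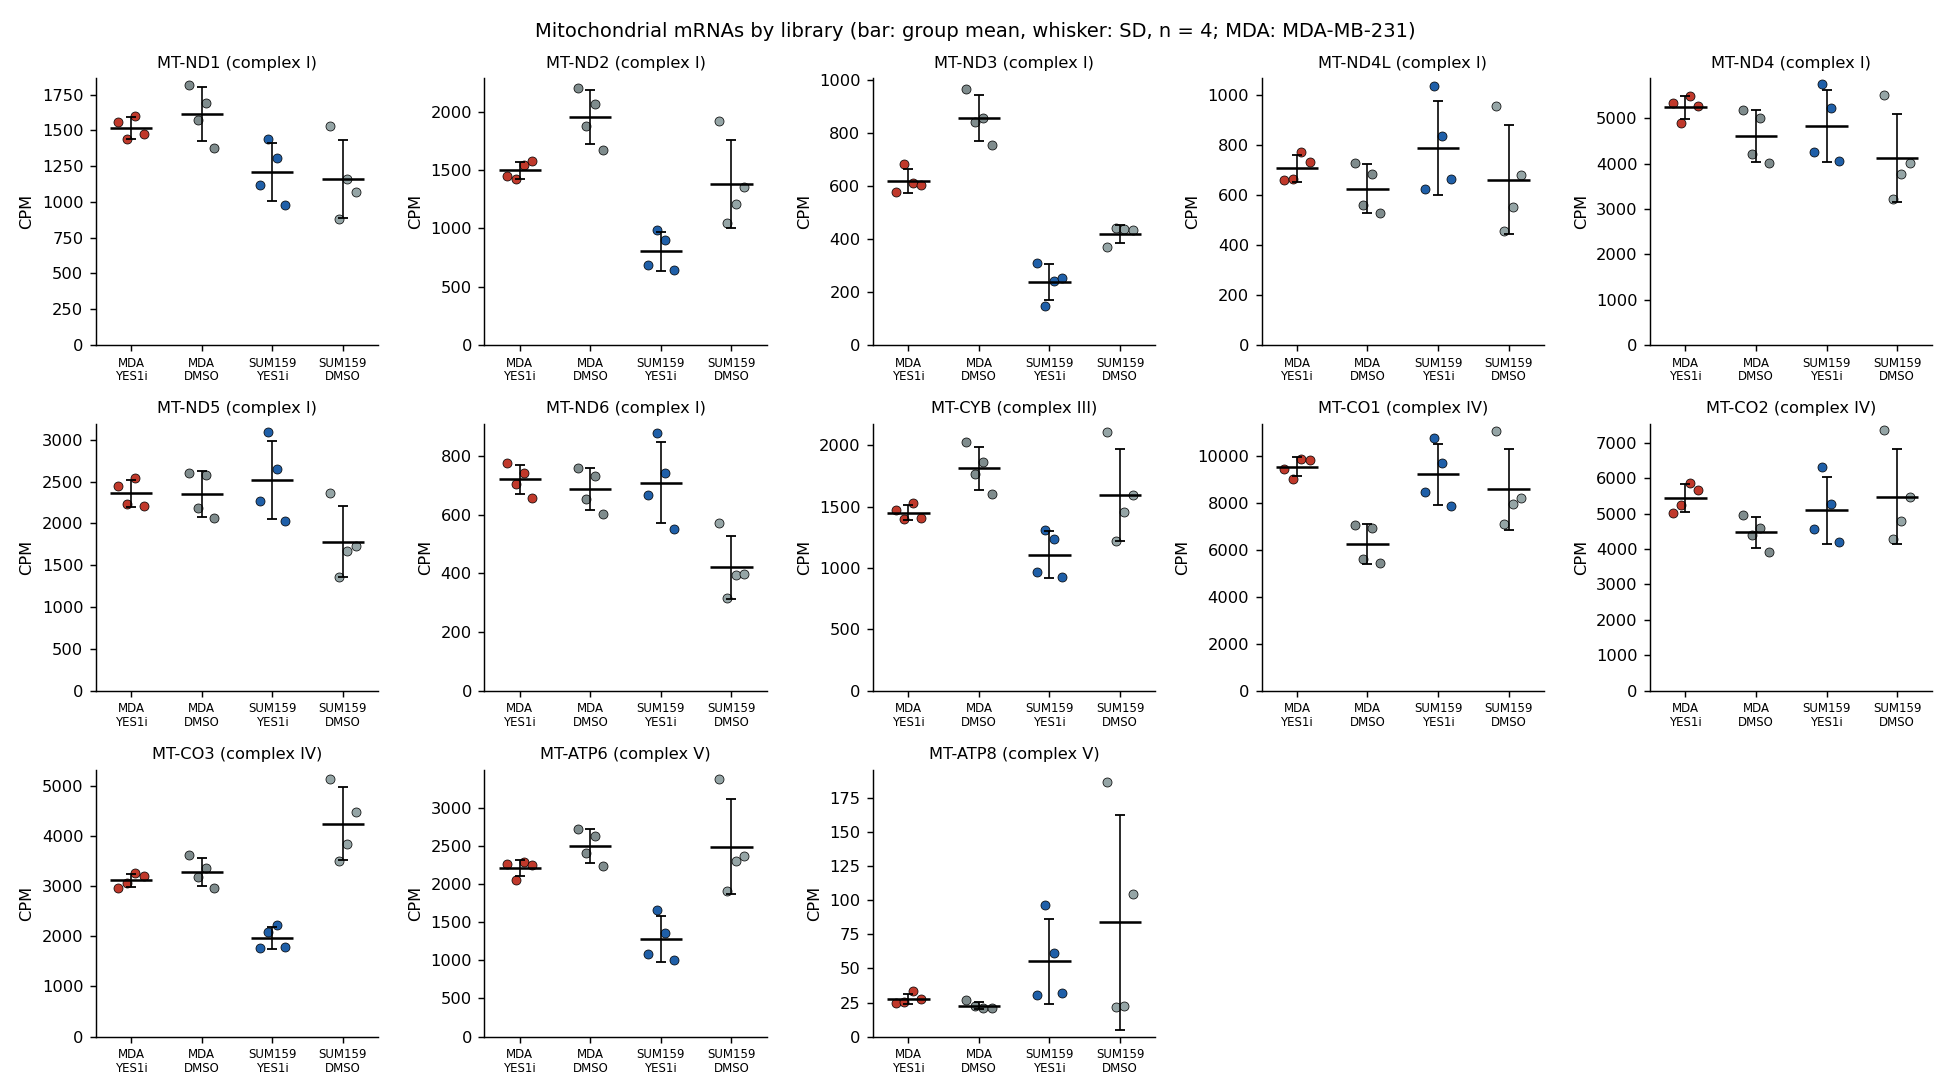
Levels of the 13 mitochondrial mRNAs in CPM by library, 1 panel per gene with its respiratory complex; points are libraries, bars group means and whiskers SD (n = 4). In SUM159, MT-CO3, MT-ATP6, MT-ND2 and MT-ND3 lie lower in every YES1i library than in every DMSO library. In MDA-MB-231, MT-CO1 and MT-CO2 lie higher in every YES1i library, and MT-ND2, MT-ND3 and MT-CYB lower.

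The fit of all 16 libraries used a single spread per gene for both lines. Fitted to the 8 MDA-MB-231 libraries alone, 7 members were called lower in place of 1. These were MT-ND3, MT-ND2 (log2 fold change -0.42), MT-CYB (-0.36), MT-ATP6 (-0.22), MT-CO3 (-0.11), MT-TL1 (-0.37) and MT-TH (-0.50). The same fit called 7 members higher in place of 5, adding MT-CO2 and MT-ATP8 (0.24 each). Of 15577 genes tested in that fit, 4568 were called higher and 4780 lower. With both SUM159 libraries that stood apart left out, a setting chosen after the data were seen, 5 members were called lower in MDA-MB-231. There 6 were higher, MT-CO2 being the added one. Of 17813 genes tested in this setting, 5140 were called higher and 4152 lower in MDA-MB-231, and 4076 higher and 4396 lower in SUM159. In SUM159, 12 members were then called higher and 5 lower, in place of 11 and 5. The log2 fold change there without them was 0.93 for MT-RNR2, 0.50 for MT-RNR1, -1.03 for MT-CO3, -0.93 for MT-ATP6, -0.70 for MT-ND3, -0.69 for MT-ND2, -0.44 for MT-CYB, 0.82 for MT-ND6, 0.55 for MT-ND5 and 0.62 for MT-TC, and all of these were called.

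The make-up of the mitochondrial mRNA counts, which does not depend on scaling between libraries, differed with YES1i in both lines. These shares sum to 100% in each library, so that a larger share of 1 mRNA lowers the others, and they were described without a test. MT-CO1 was the only mRNA whose share was higher in every YES1i library of both lines, at 27.7% ± 0.387 with YES1i and 20.2% ± 0.739 with DMSO in MDA-MB-231, and 31.0% ± 0.684 with YES1i and 26.6% ± 0.812 with DMSO in SUM159 (SD, n = 4 each). The shares of 4 mRNAs, MT-ND2, MT-ATP6, MT-CO3 and MT-CYB, were lower in every YES1i library of both lines.

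MT-ATP6 made up 6.41% ± 0.166 with YES1i and 8.05% ± 0.193 with DMSO in MDA-MB-231, and 4.24% ± 0.310 with YES1i and 7.64% ± 0.266 with DMSO in SUM159. MT-CO3, which follows it in the same transcript, made up 9.05% ± 0.253 with YES1i and 10.6% ± 0.332 with DMSO in MDA-MB-231, and 6.66% ± 0.572 with YES1i and 13.2% ± 0.839 with DMSO in SUM159. Both therefore lost share in each line, with the wider gap in SUM159. MT-ND5 went opposite ways, at 6.84% ± 0.382 with YES1i and 7.59% ± 0.159 with DMSO in MDA-MB-231, and 8.41% ± 0.233 with YES1i and 5.48% ± 0.162 with DMSO in SUM159. Neither line overlapped for it. In all, MDA-MB-231 had 1 mRNA with a higher and 7 with a lower share in every YES1i library, and SUM159 had 5 and 4. In CPM, which is another measure, 25.5% of all tested genes were higher and 21.8% lower without overlap in MDA-MB-231. In SUM159 20.5% were higher and 22.7% lower in this way.

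**Figure D4:**
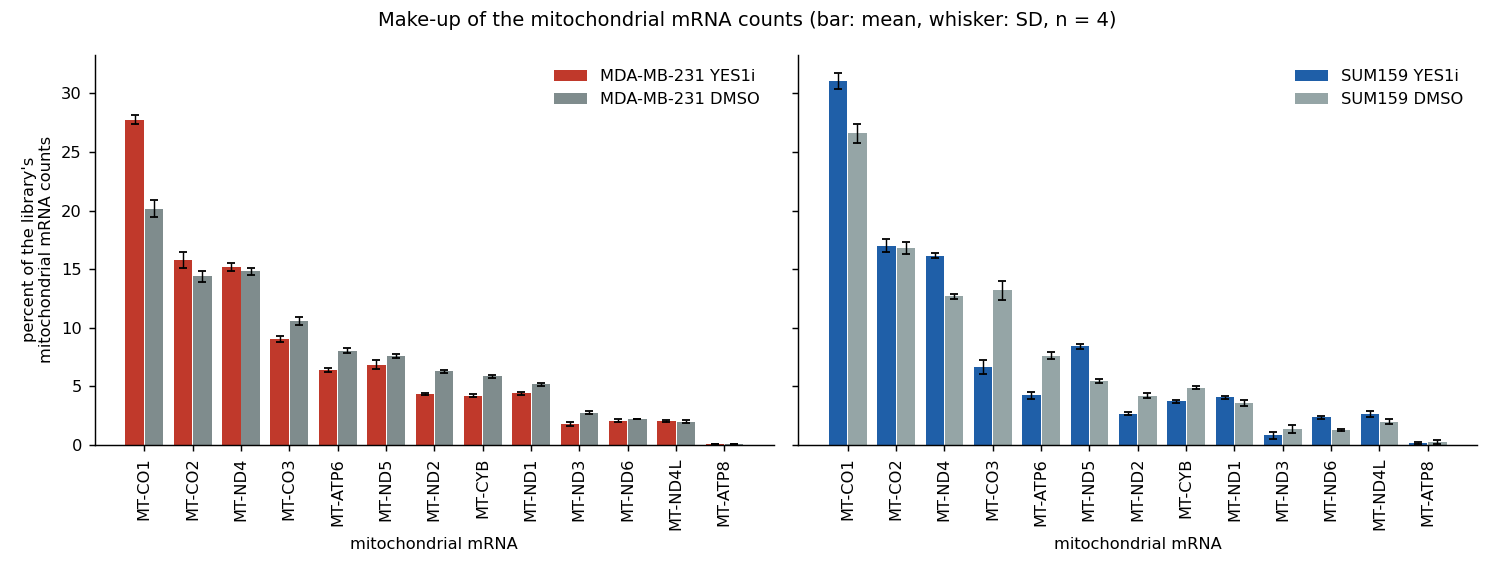
Percent of a library's mitochondrial mRNA counts that came from each of the 13 mRNAs, in MDA-MB-231 (left panel) and SUM159 (right panel), with YES1i and DMSO bars side by side; bars are means and whiskers SD (n = 4). MT-CO1 takes a larger share with YES1i in both lines, and MT-ND2, MT-ATP6, MT-CO3 and MT-CYB a smaller one.

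Reads on tRNA genes were few, at 0.0345% ± 0.00467 of counts with YES1i and 0.0224% ± 0.00209 with DMSO in MDA-MB-231, and 0.0472% ± 0.0139 with YES1i and 0.0256% ± 0.00599 with DMSO in SUM159 (SD, n = 4 each). Most of them lay on the 8 light-strand tRNA genes, which held 92.9% ± 1.13 of tRNA counts with YES1i and 86.6% ± 1.10 with DMSO in MDA-MB-231, and 94.3% ± 1.07 with YES1i and 93.1% ± 1.15 with DMSO in SUM159. Mature tRNAs carry no poly(A) tail, and tRNA sequence inside longer transcripts and mature tRNA cannot be told apart here. Of 15 tested tRNA genes, 3 were called higher with YES1i in MDA-MB-231, all on the light strand, and 7 in SUM159, 3 on the light and 4 on the heavy strand. These are 3 of 15 where 26.8% of all tested genes were called higher in MDA-MB-231, and 7 of 15 where 25.1% were in SUM159. With all 16 libraries and the filter, by edgeR, DESeq2 or limma-voom, 0 tRNA genes were called lower in either line, with 1 in MDA-MB-231 and 0 in SUM159 at an unadjusted edgeR p under 0.05. Under other settings MT-TL1 was called lower in MDA-MB-231 in a fit of that line alone (adjusted p = 0.0172), without the filter (0.0108), without both SUM159 libraries that stood apart (0.0454) and without MDA-MB-231 DMSO replicate 4 (0.0313). MT-TH was called lower there in the fit of that line alone (0.0268) and without both libraries (0.0488), MT-TV without MDA-MB-231 YES1i replicate 1 (0.0463), and MT-TT in SUM159 without the filter (0.0470). MT-TS2, the serine tRNA beside MT-TH, had 0 counts in every library.

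MT-TP, whose sequence is given above, had 46.6, 51.4, 54.8 and 56.0 CPM with YES1i in MDA-MB-231, against 32.6, 25.6, 31.0 and 23.3 CPM with DMSO. In SUM159 it had 115, 188, 130.2 and 112 CPM with YES1i, against 55.9, 27.5, 31.7 and 42.0 CPM with DMSO. Every YES1i library lay above every DMSO library in both lines. The log2 fold change was 0.89 ± 0.23 (SE) in MDA-MB-231 (edgeR's adjusted p = 0.00578) and 1.78 ± 0.22 in SUM159 (edgeR's adjusted p = 1.63e-05).

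MT-TC was the most abundant tRNA gene, with 45.9% to 63.9% of tRNA counts in a library. In MDA-MB-231 it had 159, 229.6, 152 and 149 CPM with YES1i, against 116, 104, 90.4 and 105 CPM with DMSO. In SUM159 it had 189, 423, 228 and 192 CPM with YES1i, against 226, 119, 127 and 154 CPM with DMSO. The groups overlapped in SUM159 only. The log2 fold change was 0.73 ± 0.28 (SE) in MDA-MB-231 (edgeR's adjusted p = 0.0491) and 0.72 ± 0.28 in SUM159 (edgeR's adjusted p = 0.0469). Both adjusted p-values lay just under 0.05, and each call was lost on leaving out any 1 of several libraries. In MDA-MB-231 it ended without any 1 of the 8 libraries of that line (adjusted p 0.0586 to 0.148), and without SUM159 DMSO replicate 2, 3 or 4 or YES1i replicate 3 (0.0513 to 0.0621). In SUM159 it ended without DMSO replicate 2, 3 or 4 or YES1i replicate 2 or 3 (0.0566 to 0.194), and without 7 of the 8 MDA-MB-231 libraries, all but YES1i replicate 2 (0.0545 to 0.0577). Without SUM159 YES1i replicate 2 its log2 fold change there was 0.37.

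MT-TN had 50.2, 76.6, 77.0 and 72.9 CPM with YES1i in MDA-MB-231, against 39.4, 36.8, 29.6 and 32.3 CPM with DMSO. It rose there without overlap, at a log2 fold change of 1.00 ± 0.17 (SE, edgeR's adjusted p = 0.000271). In SUM159 it had 54.0, 30.2, 41.0 and 45.9 CPM with YES1i, against 31.2, 33.4, 38.5 and 30.9 CPM with DMSO, and was not called (0.35 ± 0.18, edgeR's adjusted p = 0.119). It was called there without YES1i replicate 2 (0.49, adjusted p = 0.0218), with DESeq2 (0.0479) and with upper quartile scaling (0.0328).

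**Figure D5:**
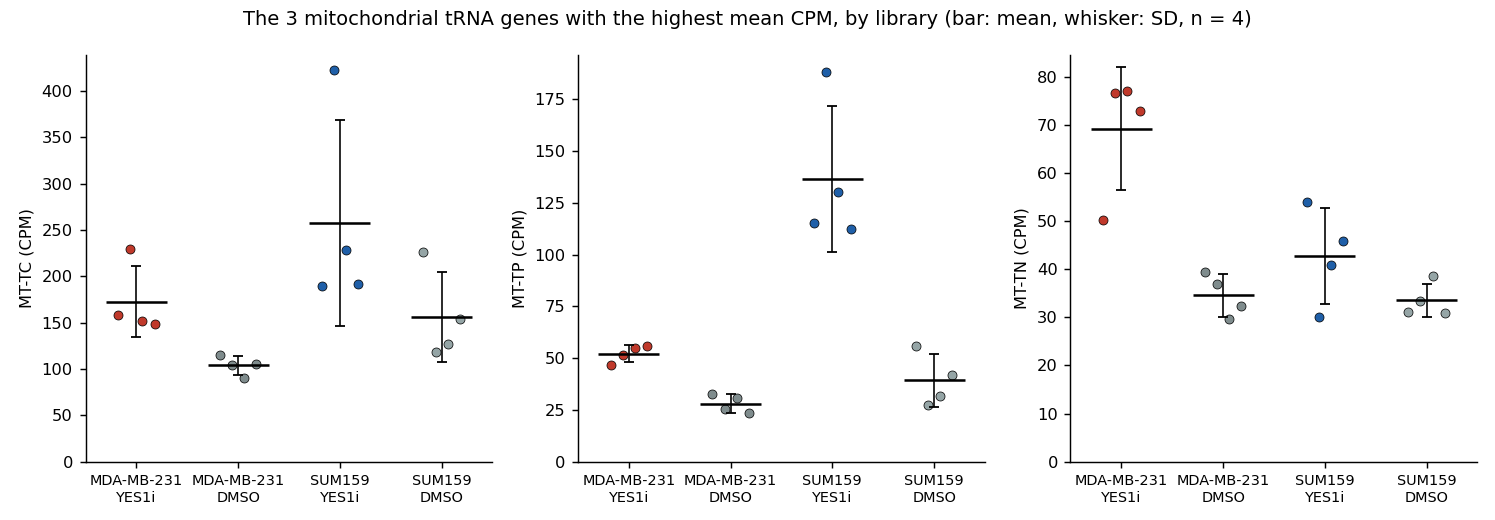
MT-TC (left), MT-TP (middle) and MT-TN (right) in CPM by library; points are libraries, bars group means and whiskers SD (n = 4). MT-TP lies higher in every YES1i library of both lines, and SUM159 YES1i replicate 2 reaches 423 CPM for MT-TC.

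The other tRNA genes called higher with YES1i in SUM159 were MT-TG (glycine, log2 fold change 1.19 ± 0.30, SE), MT-TH (histidine, 0.73 ± 0.22), MT-TR (arginine, 0.73 ± 0.29), MT-TL1 (a leucine tRNA, 0.48 ± 0.17) and MT-TY (tyrosine, 0.43 ± 0.12). MT-TG, MT-TH and MT-TR rested on 12 to 176 counts per library. The MT-TL1 call ended without SUM159 DMSO replicate 2 or 4 or YES1i replicate 2 (adjusted p 0.0653 to 0.105). The MT-TR call ended without SUM159 DMSO replicate 2, 3 or 4 or YES1i replicate 2, 3 or 4, or MDA-MB-231 DMSO replicate 1 or 3 (0.0506 to 0.127), and in a fit of SUM159 alone (0.108). Without SUM159 DMSO replicate 3 its log2 fold change was 0.49. In MDA-MB-231 none of these 5 was called, at log2 fold changes of -0.46 (MT-TH) to 0.21 (MT-TY).

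The YES1i change itself was then compared between the lines, as the change in MDA-MB-231 minus that in SUM159. Of the 30 tested members 3 had a higher and 5 a lower change in MDA-MB-231, against 19.1% and 12.1% of all tested genes (31.1% in either direction). Of all genes called in this comparison 61.2% were higher in MDA-MB-231 with TMM and 43.9% with upper quartile scaling. The rise of MT-RNR2 was larger in MDA-MB-231, by 0.30 ± 0.09 on the log2 scale (SE, edgeR's adjusted p = 0.00989), and that of MT-RNR1 was larger in SUM159, at a difference of -0.41 ± 0.12 (edgeR's adjusted p = 0.00901). The MT-RNR2 difference was not called with upper quartile scaling, at 0.19 (adjusted p = 0.105), a scaling under which all genes in SUM159 had a median log2 fold change of 0.14, against 0.02 with TMM.

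MT-CO3 had the largest such difference of the 13 mRNAs, at 1.04 ± 0.15 (SE, edgeR's adjusted p = 5.39e-05). It was called lower in SUM159 and not called in MDA-MB-231. For MT-ATP6 it was 0.79 ± 0.25 (edgeR's adjusted p = 0.0288) and for MT-ND6 -0.68 ± 0.24 (edgeR's adjusted p = 0.0489). The call for MT-ATP6 was lost on leaving out MDA-MB-231 DMSO replicate 2 or 4 or YES1i replicate 1, 3 or 4, or SUM159 YES1i replicate 1 or 4 (adjusted p 0.0503 to 0.0617). It was also lost with upper quartile scaling (0.0609), no filter (0.0870) or a replicate block (0.103). The MT-ND6 call ended with no filter (0.107) and without any 1 library other than MDA-MB-231 DMSO replicate 4 and SUM159 DMSO replicate 1 and YES1i replicate 4 (0.0570 to 0.0964). MT-CO1 missed the threshold, at 0.51 ± 0.19 (edgeR's adjusted p = 0.0657), and passed it without SUM159 DMSO replicate 2 (0.0309) or YES1i replicate 2 (0.0411), without both SUM159 libraries that stood apart (0.0329) and with limma-voom (0.0132). MT-ND5 missed it at -0.49 ± 0.23 (edgeR's adjusted p = 0.134) and passed it without SUM159 DMSO replicate 1 (-0.66, adjusted p = 0.0192), without both libraries (0.0319) and with limma-voom (0.0419).

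Among the tRNAs, MT-TH (-1.19 ± 0.31, SE, edgeR's adjusted p = 0.00328), MT-TG (-1.19 ± 0.43, adjusted p = 0.0358) and MT-TL1 (-0.81 ± 0.24, adjusted p = 0.0129), all on the heavy strand, had higher changes in SUM159. The MT-TG call was lost on leaving out MDA-MB-231 DMSO replicate 3 or 4 or YES1i replicate 2 or 4, or SUM159 DMSO replicate 1 or 4 or YES1i replicate 1, 3 or 4 (adjusted p 0.0597 to 0.0787), and with limma-voom (0.0692). For MT-TP the difference was -0.88 ± 0.32 (edgeR's adjusted p = 0.0517). It was called without SUM159 DMSO replicate 1, at -1.12 (adjusted p = 0.00956), and without MDA-MB-231 DMSO replicate 4 or SUM159 YES1i replicate 1 or 4 (0.0470 to 0.0494). It was also called with all libraries under DESeq2 (0.0135), limma-voom (0.0130), RLE (0.0430), upper quartile (0.0329) or total count scaling (0.0443) and a minimum mean count of 10 (0.0483), and without both SUM159 libraries that stood apart (0.00402).

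The lines were also set directly against each other. With YES1i, 7 of 30 members were higher and 3 lower in MDA-MB-231 than in SUM159, where 79.5% of all tested genes were called, 41% higher and 38.5% lower. With DMSO, 10 of 30 were higher and 5 lower, where 76.6% of all tested genes were called, 37.8% higher and 38.7% lower. MT-ND3 was higher in MDA-MB-231 in both conditions, by 1.39 ± 0.17 on the log2 scale with YES1i (SE, edgeR's adjusted p = 6.59e-06) and by 1.02 ± 0.17 with DMSO (edgeR's adjusted p = 0.000104). MT-RNR2 was not called with YES1i (-0.06 ± 0.06, edgeR's adjusted p = 0.362), except lower in MDA-MB-231 with upper quartile scaling (-0.17, adjusted p = 0.0126), and was lower in MDA-MB-231 with DMSO (-0.36 ± 0.06, edgeR's adjusted p = 6.91e-06). MT-CO3 was higher in MDA-MB-231 with YES1i (0.66 ± 0.11, edgeR's adjusted p = 2.62e-05) and lower with DMSO (-0.37 ± 0.11, edgeR's adjusted p = 0.00463).

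Per kilobase of gene length, MT-CO2 had the highest mean of the rRNAs and mRNAs in MDA-MB-231 with YES1i, at 7961 ± 566 CPM per kilobase, next to MT-RNR2 at 7693 ± 400 (SD, n = 4 each), a gap within their spread. With DMSO, MT-CO2 led there at 6532 ± 633 and MT-RNR2 was the sixth, at 3296 ± 171. In SUM159, MT-RNR2 came before MT-CO2 with YES1i, at 8033 ± 451 and 7438 ± 1372, and was the fourth with DMSO, at 4237 ± 437, where MT-CO2 had 7999 ± 1958. MT-RNR1, read from the same stretch of transcript as MT-RNR2, stayed between 934 ± 106 and 1346 ± 144 CPM per kilobase in all groups. MT-ATP8 was last in every group, at 110 ± 12.6 to 405 ± 380.4. MT-ATP6, read from the same mRNA, had 1872 ± 440 to 3664 ± 320. The counting rule over their overlap is not given, so the place of MT-ATP8 is uncertain, and the cause of this gap was not tested.

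Spread between libraries of a group was shared by the mRNAs. The median coefficient of variation over the 13 mRNAs was 4.96% in MDA-MB-231 with YES1i, 11.4% in MDA-MB-231 with DMSO, 18.5% in SUM159 with YES1i and 23.8% in SUM159 with DMSO. DMSO replicate 1 was highest for 13 of 13 mRNAs in MDA-MB-231 and replicate 4 lowest for 12. MT-ND3 was an exception in SUM159, where DMSO replicate 1 and YES1i replicate 2, highest for most other mRNAs, were the lowest of their groups.

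Nuclear genes that serve mitochondrial DNA and RNA were described by list. Up to 3 called genes of largest change are named per line, so a gene named for 1 line can have changed in the other. By the test of the difference between lines, 1 of 10 transcription genes had a higher and 0 a lower change in MDA-MB-231. These counts were 2 and 1 of 20 for RNA cleavage to decay, and 4 and 2 of 12 for rRNA modification and binding. They were 3 and 2 of 12 for DNA replication and 0 and 0 of 7 for regulators, against 19.1% and 12.1% of all genes. Of 10 genes of mitochondrial transcription, 1 was higher and 3 lower with YES1i in MDA-MB-231, where 26.8% of all tested genes were higher and 22% lower. In SUM159 1 was higher and 7 lower, where 25.1% of all tested genes were higher and 26.5% lower. The median log2 fold change of this list was -0.01 in MDA-MB-231 and -0.34 in SUM159. TFAM, which packages mitochondrial DNA and starts its transcription, averaged 69.1 ± 1.70 CPM with YES1i and 104 ± 5.002 CPM with DMSO in MDA-MB-231 (SD, n = 4 each), a log2 fold change of -0.59 ± 0.05 (SE, edgeR's adjusted p = 2.21e-10). In SUM159 it averaged 37.2 ± 1.96 CPM with YES1i and 57.2 ± 2.42 CPM with DMSO, a log2 fold change of -0.62 ± 0.06 (edgeR's adjusted p = 2.77e-10). MTERF3, which represses mitochondrial transcription in mice, was lower in both lines, by log2 fold changes of -0.47 and -0.60. TEFM, the elongation factor, was called lower in MDA-MB-231 (-0.36), and TFB1M, which methylates the 12S rRNA, in SUM159 (-0.53).

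Of 20 genes that cleave, polyadenylate, stabilise or degrade mitochondrial RNA, none was higher by edgeR (0 also at an unadjusted p under 0.05) and 9 were lower with YES1i in MDA-MB-231, and 1 was higher and 11 lower in SUM159. Among all tested genes 26.8% were called higher and 22% lower in MDA-MB-231, and 25.1% higher and 26.5% lower in SUM159. PNPT1, a subunit of the mitochondrial RNA degradosome, averaged 26.1 ± 1.07 CPM with YES1i and 41.8 ± 1.90 CPM with DMSO in MDA-MB-231, and 50.7 ± 5.85 CPM with YES1i and 81.2 ± 3.20 CPM with DMSO in SUM159, a log2 fold change of -0.68 in each line (edgeR's adjusted p = 3.60e-09 and 1.01e-09). SLIRP, which with LRPPRC stabilises mitochondrial mRNAs, fell in MDA-MB-231 (-0.84), as did HSD17B10, a subunit of the enzyme that cuts the 5′ ends of tRNAs (-0.57). FASTKD5, needed to process mRNAs that no tRNA borders, fell in SUM159 (-0.82), as did PDE12, which removes A from mitochondrial tails (-0.62). Of 12 genes of rRNA modification and binding, 1 was higher and 6 lower in MDA-MB-231, and 1 higher and 8 lower in SUM159. The 16S rRNA methyltransferase MRM2 (-0.37 and -0.63) and the 12S rRNA chaperone ERAL1 (-0.40 and -0.55) were lower in both lines, MRM3, which methylates the 16S rRNA, was lower in MDA-MB-231 (-0.46) and RCC1L, a 16S rRNA assembly factor, in SUM159 (-0.65).

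Of 12 genes of mitochondrial DNA replication and nucleotide supply, 3 were higher and 7 lower in MDA-MB-231, and 3 higher and 8 lower in SUM159. The shares of all tested genes were 26.8% higher and 22% lower in MDA-MB-231, and 25.1% higher and 26.5% lower in SUM159. DNA2, a nuclease and helicase that also acts in the nucleus, averaged 10.9 ± 0.547 CPM with YES1i and 32.7 ± 2.45 CPM with DMSO in MDA-MB-231, and 8.37 ± 0.459 CPM with YES1i and 22.6 ± 0.646 CPM with DMSO in SUM159. TK2, the mitochondrial thymidine kinase, was higher in MDA-MB-231 (log2 fold change 1.16) and the topoisomerase TOP3A lower (-0.80), while in SUM159 SSBP1, which coats single-stranded mitochondrial DNA, was lower (-0.54) and TOP1MT, the mitochondrial topoisomerase, higher (0.54). Of 7 nuclear regulators, 3 were higher and 3 lower in MDA-MB-231, and 1 higher and 3 lower in SUM159. PPARGC1A, the coactivator known for driving mitochondrial biogenesis, averaged 22.3 ± 1.41 CPM with YES1i and 2.65 ± 0.717 CPM with DMSO in MDA-MB-231, a log2 fold change of 3.07 ± 0.12 (SE, edgeR's adjusted p = 3.63e-18). In SUM159 it averaged 24.6 ± 1.55 CPM with YES1i and 2.82 ± 0.128 CPM with DMSO, a log2 fold change of 3.13 ± 0.12 (edgeR's adjusted p = 2.94e-18). ESRRA, a nuclear receptor that works with it, was higher in MDA-MB-231 (0.70). PPRC1, a coactivator of the same family as PPARGC1A, was lower in both lines (-0.46 and -0.50), and GABPB1, a subunit of the transcription factor GABP, was lower in SUM159 (-0.58).

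Copies of mitochondrial genes in the nuclear genome could share reads with the members, and how reads that fit several places were counted is not given in the sources used here. The table held 407 such copies, 279 of them with 0 counts in every library and 3 with a mean of 10 counts or more, all on chromosome 1. Their summed counts were 0.349 to 0.554 per 100 counts of members with YES1i and 0.600 to 0.664 with DMSO in MDA-MB-231, and 0.149 to 0.233 with YES1i and 0.260 to 0.370 with DMSO in SUM159. MTATP6P1 had 2.94 to 6.07 counts per 100 MT-ATP6 counts with YES1i and 4.04 to 4.65 with DMSO in MDA-MB-231, and 3.03 to 4.22 with YES1i and 2.82 to 3.29 with DMSO in SUM159. MTND2P28 had 4.26 to 5.18 counts per 100 MT-ND2 counts with YES1i and 4.82 to 5.17 with DMSO in MDA-MB-231. In SUM159 it had 1.35 to 4.30 with YES1i and 1.34 to 4.47 with DMSO. MTCO1P12 had 0.0408 to 0.528 counts per 100 MT-CO1 counts over all groups. The values of MT-ATP6, MT-ND2, MT-CO1 and other members with such copies are uncertain. These ratios do not give the extent, since reads counted for neither gene would not show in them. The part of these copies in the results was not tested.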

How the data were processed

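RNA sequencing of 16 libraries in 4 groups was analysed. The authors deposited read counts per gene, with no normalization. HISAT2 2.0.5, featureCounts 1.5.0-p3 and hg38 are listed, with no role, in the submitters' processing notes. No source used here gives the strand setting or how overlaps and multiple hits were counted. Depth was 15876171 to 36261542 counts per library.

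Deposited counts went into edgeR 4.0.16 (R 4.3.3) with TMM scaling, filterByExpr, and the robust quasi-likelihood test, all libraries sharing a fit with group means. Benjamini-Hochberg adjustment ran over the 17647 tested genes of each contrast. CPM values use TMM-scaled library sizes. The steps were tested on simulated counts. Alternatives were other scalings (RLE, upper quartile, total count, TMM without MT genes), DESeq2 1.42.0, limma-voom (limma 3.58.1), other filters, a fit per contrast, a replicate block, a threshold of 0.01, and each library left out. Members were all genes on MT. Values in every library were given for the rRNAs, the mRNAs called in a line or in the difference between lines, and the 3 tRNAs with the highest mean CPM, and for MT-ATP8, named after its values were seen. For the nuclear lists, up to 3 called genes of largest change per line are named. Members and lists were chosen with earlier results of these data known.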

Additional observations from a re-analysis of the deposited data

Results flagged for a closer look

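Single libraries lay far from the other 3 of their group in 9 of 92 sets of 4 values examined. The rule used is met by chance in about 1 in 20 independent sets. These sets came from the same libraries, and MT-TC counts are part of the tRNA share, so the sets were not independent. Whether 9 is more than chance gives was not tested. In SUM159 with YES1i, replicate 2 was high for MT-TC (422.8 CPM), for the share of counts from tRNA (0.0678%) and for the share from rRNA (1.485%). In SUM159 with DMSO, replicate 1 was low for MT-ND3 (369.1 CPM). In MDA-MB-231 with YES1i, replicate 2 was high for MT-TC (229.6 CPM) and for the tRNA share (0.0414%) and low for MT-ATP6 (2055 CPM), and replicate 1 was low for MT-TN (50.2 CPM). In MDA-MB-231 with DMSO, replicate 3 had the low ratio of 4.45 MT-RNR2 counts per MT-RNR1 count.

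The change with YES1i differed between the lines by the edgeR test of the difference for 8 members, given here as the log2 change in MDA-MB-231 minus that in SUM159. It was higher in MDA-MB-231 for MT-RNR2 (0.30), MT-ATP6 (0.79) and MT-CO3 (1.04). It was lower in MDA-MB-231 for MT-RNR1 (-0.41), MT-ND6 (-0.68), MT-TL1 (-0.81), MT-TG (-1.19) and MT-TH (-1.19).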

How the results depend on the processing

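Over all alternatives, 4168 log2 fold changes of members gave 0 reversals of a call, 152 lost calls and 101 gained ones. These include the threshold of 0.01, which read the main fit again, so that a call could only be lost there. Fewer or more calls came as follows, and the cause was not tested. Members lower with YES1i in MDA-MB-231 numbered 1, but 7 in a fit of that line alone, 3 with limma-voom, 0 at an adjusted p under 0.01 and 5 without both SUM159 libraries that stood apart, an alternative added after seeing the data. Members higher with YES1i in SUM159 numbered 11, but 7 at 0.01. Members with a higher change in MDA-MB-231 than in SUM159 numbered 3, but 1 with upper quartile scaling and 5 with limma-voom, and those with a lower change 5, but 2 at 0.01 and 8 without both libraries. With DMSO, 10 members were higher in MDA-MB-231 than in SUM159, but 6 at 0.01, and 5 were lower, but 3 at 0.01, 8 with limma-voom and 3 without both libraries. With YES1i 3 were lower, but 6 with upper quartile scaling.

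Leaving out 1 library at a time gave 0 to 3 members lower with YES1i in MDA-MB-231, with 0 without DMSO replicate 1, 2 or 3 or YES1i replicate 3 or 4, 2 without DMSO replicate 4 and 3 without SUM159 DMSO replicate 1. It gave 7 to 13 higher in SUM159, with 7 without DMSO replicate 2 or 4. For the difference between lines it gave 2 to 4 higher and 3 to 8 lower, with 3 without MDA-MB-231 DMSO replicate 3, MDA-MB-231 YES1i replicate 2 or 4, SUM159 DMSO replicate 4 or SUM159 YES1i replicate 3, and 8 without SUM159 DMSO replicate 1. With DMSO it gave 8 to 12 higher and 3 to 7 lower in MDA-MB-231 than in SUM159, with 3 without SUM159 DMSO replicate 1, and with YES1i 2 to 4 lower. Per 100 protein-coding counts not on MT, rRNA counts were 1.42 with YES1i and 0.681 with DMSO in MDA-MB-231 and 1.44 with YES1i in SUM159, and mRNA counts 3.74 with YES1i in MDA-MB-231.

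Same-numbered libraries did not deviate together (correlations of -0.107 to 0.012), so the numbers were not taken as pairs. With a replicate block, 0 members were lower with YES1i in MDA-MB-231 and 3 had a lower change in MDA-MB-231 than in SUM159, in place of 1 and 5.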
